A study of Mus musculus with 16 samples.

Results

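Cortical bone of non-loaded tibiae was compared between 4 mice labelled NT3 (NT3-Cre+) and 4 mice labelled Ctrl, across all rows of the gene count tables. The members were the 8 libraries of left tibiae, each from a separate mouse, of 16 libraries in the series. The remaining 8 libraries came from the right tibiae of the same mice. All mice were male and 16 weeks old. Per the series title, the study activated the kinase NIK, the product of Map3k14, conditionally in osteolineage cells. Which allele NT3 stands for, which promoter drove Cre and which alleles Ctrl mice carried was not given in the sources used here.

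The left tibiae were not loaded themselves, but they came from animals whose right tibia had been compressed on 9 days at 1200 cycles per day. Peak force on the right limb was 10.0 N in NT3 mice and 8.7 N in Ctrl mice, set to reach -2000 microstrain in both. Bones of both genotypes were collected 4 hours after the last bout, and all mice had received isoflurane and buprenorphine. The comparison therefore concerned the genotype in the resting limb of loaded mice. Muscle was stripped off and marrow was spun out before RNA extraction, and the mean RNA integrity number given for the study was 5.4.

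NIK is the kinase at the head of the alternative NF-kB pathway. It is normally kept low by a complex that contains TRAF3, and when it accumulates it leads to cleavage of the precursor encoded by Nfkb2, which then enters the nucleus with the product of Relb. The pathway is known for B cell survival, for lymphoid chemokines, and in bone for the formation of osteoclasts and for effects within the osteoblast lineage.

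A row is one line of the count tables and carries one gene name. Many rows shared exons with a gene on the other strand of the chromosome. The strand setting of the counting was not given in the sources used here, and a row's fragments cannot be split by strand of origin. Both names are therefore given. Opposite means here that exons on the 2 strands shared at least 20 bases on GRCm38. Of the 6220 rows that passed the filter on low counts, 3584 (57.6%) lay opposite an exon, and such rows held 72.1% of the fragments. Libraries held 775531 to 961382 fragments in NT3 and 897909 to 998031 in Ctrl, so a row at 20 fragments carried large counting error.

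Promoters of 5 genes that named a called row or lay opposite one are printed, because the pathway under study ends in NF-kB binding at DNA. They are the RefSeq sequences on GRCm38.p6 from 250 bases before to 50 bases after the annotated start, written 5′ to 3′ on the gene's strand. Capitals mark matches to the NF-kappaB consensus of 10 bases, searched on both strands. Overlapping matches run together in one stretch of capitals.
Cxcl10, opposite the Art3 row, chr5:92348840-92349139, minus strand: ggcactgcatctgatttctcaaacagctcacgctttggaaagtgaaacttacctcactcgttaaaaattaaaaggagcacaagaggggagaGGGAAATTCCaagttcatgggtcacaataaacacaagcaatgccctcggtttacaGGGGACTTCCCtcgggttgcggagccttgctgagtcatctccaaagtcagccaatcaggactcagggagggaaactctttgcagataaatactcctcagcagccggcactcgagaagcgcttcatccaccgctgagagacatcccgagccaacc
Nfkb2, opposite the Psd row, first of several starts, chr19:46304487-46304786, plus strand: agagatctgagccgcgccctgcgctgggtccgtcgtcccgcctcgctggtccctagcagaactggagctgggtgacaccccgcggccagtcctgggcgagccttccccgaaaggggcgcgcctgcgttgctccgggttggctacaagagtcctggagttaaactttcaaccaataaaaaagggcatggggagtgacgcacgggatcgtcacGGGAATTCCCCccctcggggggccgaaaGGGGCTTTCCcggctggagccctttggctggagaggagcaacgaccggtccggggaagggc
Extl1, the row itself, chr4:134372498-134372797, minus strand: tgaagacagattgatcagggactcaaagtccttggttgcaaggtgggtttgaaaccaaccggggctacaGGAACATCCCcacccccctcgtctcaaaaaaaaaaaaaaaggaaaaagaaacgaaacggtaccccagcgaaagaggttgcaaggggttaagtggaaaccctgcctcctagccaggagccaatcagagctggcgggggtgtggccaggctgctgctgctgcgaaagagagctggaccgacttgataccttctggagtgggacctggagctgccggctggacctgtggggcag
Il4i1, opposite the Tbc1d17 row, chr7:44836038-44836337, plus strand: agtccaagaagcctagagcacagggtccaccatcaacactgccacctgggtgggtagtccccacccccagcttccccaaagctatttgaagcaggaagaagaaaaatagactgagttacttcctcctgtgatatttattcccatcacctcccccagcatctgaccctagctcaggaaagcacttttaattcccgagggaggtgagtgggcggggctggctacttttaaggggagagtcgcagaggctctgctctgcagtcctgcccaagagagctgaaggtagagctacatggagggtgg
Ltbp2, opposite the D030025P21Rik row, chr12:84876442-84876741, minus strand: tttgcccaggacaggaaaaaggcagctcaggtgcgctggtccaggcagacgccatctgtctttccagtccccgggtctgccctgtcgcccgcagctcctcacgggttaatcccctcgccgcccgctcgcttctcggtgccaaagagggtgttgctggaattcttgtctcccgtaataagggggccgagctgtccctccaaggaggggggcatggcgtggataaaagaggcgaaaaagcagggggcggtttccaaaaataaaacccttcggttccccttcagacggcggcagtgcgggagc

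The Cxcl10 window held 3 matches, beginning 159, 104 and 103 bases before the start, and the first Nfkb2 window held 3, beginning 39, 38 and 11 bases before it. The Extl1 window held 1 match, 181 bases before the start, and the Il4i1 and Ltbp2 windows held none. These printed windows are examples, so the share of them with a match stands for no wider set. Of 62 genes that named a called row or lay opposite one, 31 had a promoter in the table and 7 had at least 1 match, the other 4 being Akt1s1, Gfra1, Gm11651 and Pdgfc. The same consensus was present in 8.46% of 32851 promoters of this length. That share counts single promoters, whereas a gene with several starts counted as matched if any of its windows held a match, so the shares are not alike. A match describes letters only and was not set against any binding data.

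In NT3 non-loaded tibiae, 26 rows were higher and 10 rows were lower than in Ctrl non-loaded tibiae, by edgeR's quasi-likelihood test at a Benjamini-Hochberg adjusted p under 0.05 over all rows. The background was 36 of 6220 rows called, or 0.579%, made up of 0.418% called higher and 0.161% called lower. The 8 smallest adjusted p values belonged, in order, to rows opposite Il4i1, Ltbp2 and Cxcl16, to the Extl1 and Fzd2 rows with no exon opposite, and to rows opposite Ciita, Gfra1 and Ace. The Fzd2 row and the row opposite Gfra1 were lower in NT3, and the other 6 were higher. The libraries of the groups did not overlap in counts per 1e+06 fragments, TMM-scaled (CPM), in 35 of the 36 called rows, against 4% of all rows tested (2.14% with NT3 higher and 1.86% with NT3 lower). Of the called rows, 27 (75%) lay opposite an exon and 9 did not, against 57.6% of all rows tested that lay opposite one.

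**Figure D1:**
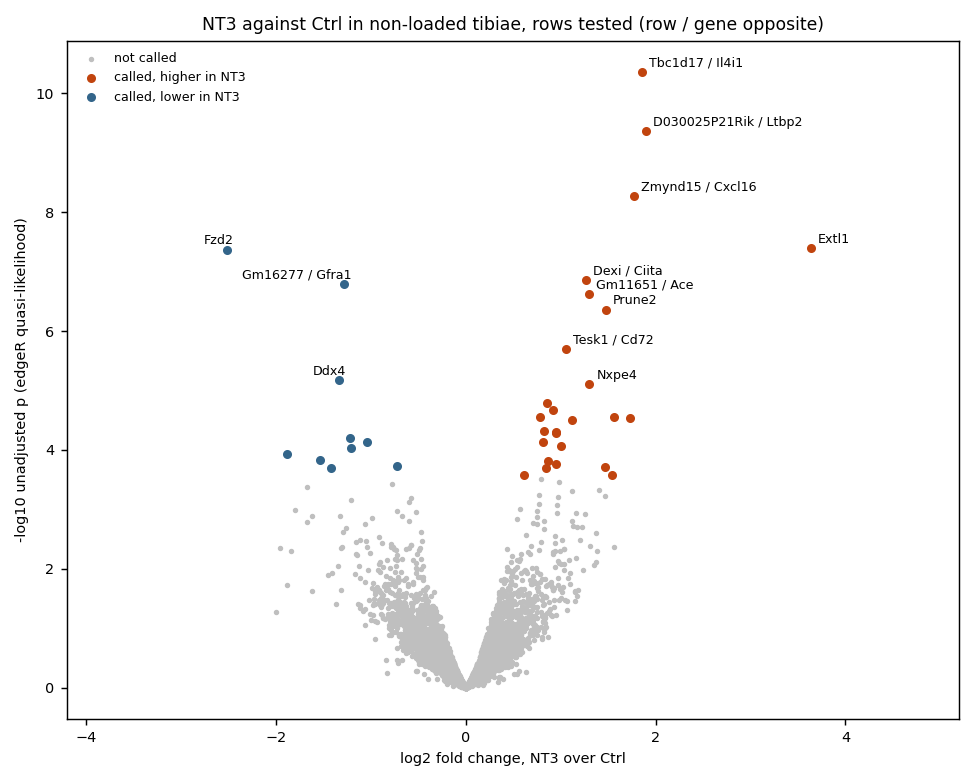
Each point is one of the 6220 rows tested, with the log2 fold change of NT3 over Ctrl on the horizontal axis and -log10 of the unadjusted edgeR p on the vertical axis; called rows are coloured by direction. The 26 rows higher in NT3 outnumber the 10 lower ones, and Tbc1d17, opposite Il4i1, stands at the top with a log2 fold change of 1.86.

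The NIK row itself could not check the genotype. Map3k14 held 1, 7, 5 and 5 fragments in the 4 NT3 libraries, against 4, 4, 1 and 1 in the 4 Ctrl libraries, and did not pass the filter. The groups overlapped at this depth. Relb, which encodes the partner of the cleaved Nfkb2 product, and Traf3, which encodes the adaptor that holds NIK down, were also below the filter, with means of at most 1.38 CPM in either group.

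Psd, at chr19:46312087-46327156, shares 299 exon bases with Nfkb2 on the other strand. The Psd row held 179, 184, 197 and 161 CPM in NT3, against 117, 71.0, 107 and 113 CPM in Ctrl. Every NT3 library was above every Ctrl library. The row was 1.76-fold higher in NT3 (log2 fold change 0.81, SE 0.18, edgeR adjusted p = 0.0193), and the call was lost without Ctrl mouse 2, Ctrl mouse 3, NT3 mouse 1 or NT3 mouse 3, where adjusted p reached 0.142. It was also lost with a marrow marker covariate, the mean level of 15 granulocyte, erythroid and platelet rows (adjusted p = 0.0672), and with animal number as a 2-level term (0.0503). The row named Nfkb2 held far less, 16.8 ± 1.74 CPM in NT3 and 14.0 ± 3.03 CPM in Ctrl (SD, n = 4 each). It was not called (0.26, SE 0.36, edgeR adjusted p = 0.932). Which of these rows measured Nfkb2 mRNA was not tested, since the strand setting was not given.

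Of the NIK and alternative NF-kB list, 3 rows of 27 passed the filter, and Psd was the 1 called. Ltb, which encodes a ligand of the lymphotoxin receptor that signals through NIK, had a log2 fold change of -0.29 (adjusted p = 0.934). Of 28 rows for classical NF-kB components and feedback genes, 8 were tested, 0 were called by edgeR or DESeq2 and 0 had an unadjusted edgeR p under 0.05. Their median log2 fold change was 0.08 beside -0.012 for all rows tested. Gm16175, opposite Bcl3, which encodes a nuclear partner of NF-kB, stood at 0.54 (SE 0.33, adjusted p = 0.773). Tnip1, whose product restrains NF-kB signalling, stood at -0.44 (adjusted p = 0.745).

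Chemokine genes lay opposite 2 called rows. Cxcl16 encodes a membrane-bound chemokine of macrophages and dendritic cells and shares 552 exon bases with Zmynd15 at chr11:70459433-70466202. The Zmynd15 row held 231, 157, 274 and 136 CPM in NT3, against 64.0, 48.2, 64.2 and 56.4 CPM in Ctrl. NT3 libraries spread widely, but all lay far above the Ctrl range. The row was 3.41-fold higher in NT3 (log2 1.77, SE 0.21, adjusted p = 1.11e-05). The row named Cxcl16 held 7 to 18 fragments per library in NT3 and 11 to 19 in Ctrl. Its log2 fold change was -0.18 (SE 0.37, edgeR adjusted p = 0.950).

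Cxcl10 encodes an interferon-induced chemokine that draws T cells, and it shares 133 exon bases with Art3. The Art3 row, at chr5:92331827-92414628, held 46.9, 37.1, 48.5 and 37.8 CPM in NT3, against 12.1, 22.9, 12.2 and 10.4 CPM in Ctrl. Ctrl mouse 2 stood above the other Ctrl mice and below every NT3 mouse. The row was 2.95-fold higher in NT3 (log2 1.56, SE 0.31, adjusted p = 0.0106), but without Ctrl mouse 3 or NT3 mouse 3 adjusted p reached 0.0562. The Cxcl10 row held 0 to 2 fragments in NT3 and 0 to 5 in Ctrl. These were the 2 called rows among 9 tested of the 34 chemokine and adhesion rows; Gm43109, opposite the adhesion gene Vcam1, stood at -0.15 (adjusted p = 0.932) and Gm16587, opposite the selectin gene Selp, at 0.14 (adjusted p = 0.938).

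Il7 encodes a cytokine that stromal cells supply to lymphoid precursors. Its row, opposite Gm16685, averaged 36.4 ± 8.09 CPM in NT3 and 13.0 ± 5.86 CPM in Ctrl (SD, n = 4 each), 2.76-fold higher in NT3 (log2 1.47, SE 0.34, adjusted p = 0.0372). NT3 mouse 3 stood above the other NT3 mice, and without it, or without NT3 mouse 1, Ctrl mouse 2 or Ctrl mouse 3, the row was not called (adjusted p up to 0.197).

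The smallest adjusted p of the comparison belonged to Tbc1d17, a Rab GTPase-activating gene at chr7:44834623-44849079 on the minus strand. It shares 3423 exon bases with Il4i1, which encodes an enzyme of dendritic cells and macrophages that breaks down aromatic amino acids, and 89 with Akt1s1. The row held 311, 337, 350 and 226 CPM in NT3, against 95.4, 60.2, 83.0 and 98.2 CPM in Ctrl. All NT3 libraries stood well above all Ctrl libraries. The row was 3.62-fold higher in NT3 (log2 1.86, SE 0.18, edgeR adjusted p = 2.68e-07). The Il4i1 row held 72 to 86 fragments per library in NT3 and 68 to 88 in Ctrl and was not called (0.04, SE 0.19, adjusted p = 0.987).

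Ciita encodes the master transactivator of MHC class II genes and shares 329 exon bases with Dexi, at chr16:10502531-10543054. The Dexi row held 189, 177, 242 and 187 CPM in NT3, against 94.2, 74.7, 60.9 and 99.3 CPM in Ctrl. The groups were separate, with NT3 mouse 3 the highest. The row was 2.41-fold higher in NT3 (log2 1.27, SE 0.18, adjusted p = 0.000142), while the Ciita row stood at -0.28 (SE 0.31, adjusted p = 0.926).

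These were the 2 called rows among 14 tested of 32 antigen presentation rows. In 11 of the 14 the log2 fold change was above 0, with a median of 0.23, against 3010 of 6220 rows and -0.012 in all. BC051537, opposite H2-Pa and the class II chain gene H2-Oa, held 57.2 ± 8.97 CPM in NT3 and 29.3 ± 9.37 CPM in Ctrl (SD, n = 4 each) and was not called (0.96, SE 0.27, adjusted p = 0.125). Gm20496, opposite the immunoproteasome gene Psmb8 and the peptide transporter gene Tap2, stood at 0.50 (adjusted p = 0.392). Summed over the list, NT3 libraries held 2128 to 2872 CPM and Ctrl libraries 1420 to 2060 CPM, a sum that includes the called rows.

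**Figure D2:**
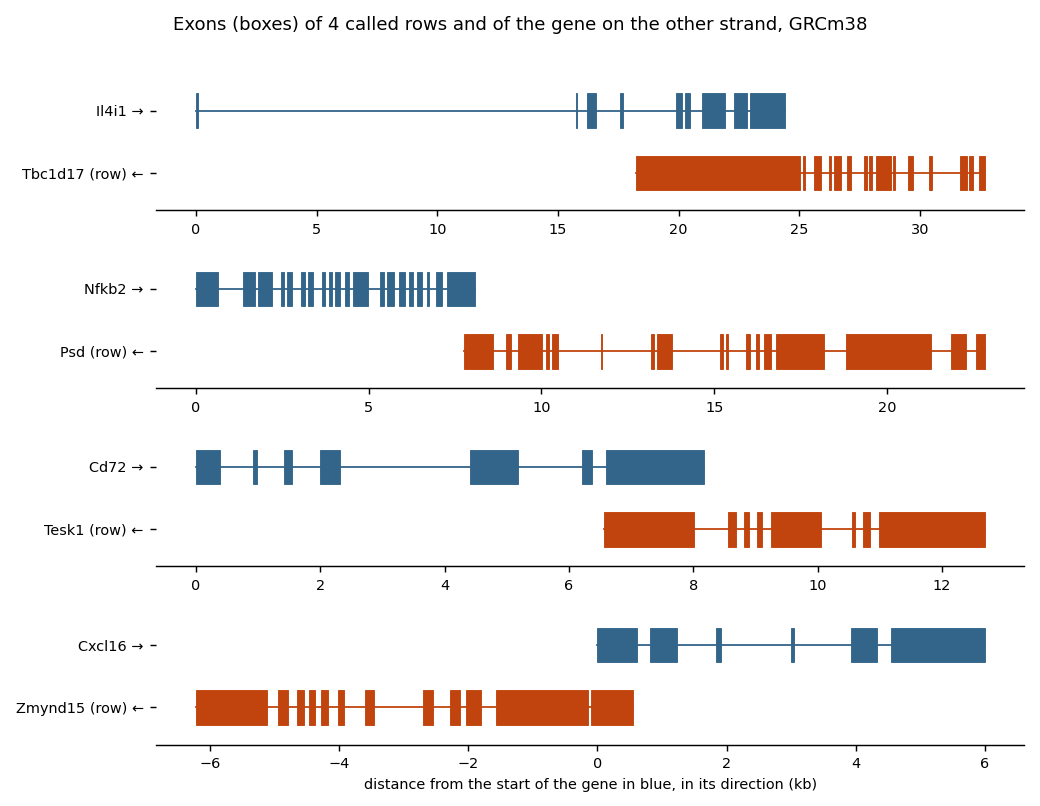
Exons (boxes) of 4 called rows and of the gene on the other strand are drawn to scale in kilobases from the start of that gene; arrows give each gene's direction relative to the axis. Il4i1 and Tbc1d17 share 3423 exon bases at their 3′ ends, Cd72 and Tesk1 share 1423 bases, while Nfkb2 and Psd (299) and Cxcl16 and Zmynd15 (552) share smaller stretches.

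Genes of B lymphoid cells made up the list with the most called rows, 4 of 10 tested, all higher in NT3. Over all rows tested, 0.418% were called higher. Tesk1 and Cd72, among the 4, share exons. The lists were chosen with earlier results of these data known, so their ranking is no separate evidence. Cd72 and Cd22 encode receptors that damp B cell signalling, and Lat2 encodes an adaptor of B and myeloid cells. The Tesk1 row, which shares 1423 exon bases with Cd72 at chr4:43441939-43448064, held 198, 197, 250 and 151 CPM in NT3, against 93.0, 81.9, 94.1 and 112 CPM in Ctrl. The groups did not overlap, and the row was 2.08-fold higher in NT3 (log2 1.06, SE 0.18, adjusted p = 0.00123; 0.0672 with the marrow marker covariate, where the call was lost).

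The Cd72 row on the other strand was called too. It held 339, 332, 287 and 260 CPM in NT3, against 220, 187, 189 and 198 CPM in Ctrl, with no overlap. Its log2 fold change was 0.62 (SE 0.15, adjusted p = 0.0460), the smallest among the called rows, and it was lost in every fit that left out a mouse except those without Ctrl mouse 1 or NT3 mouse 4 (adjusted p up to 0.206). Because exons of both rows overlap, the 2 calls come from one locus.

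The Rfc2 row, named for a clamp loader subunit of DNA replication, shares 952 exon bases with Lat2 at chr5:134581366-134601805. It held 413, 361, 443 and 350 CPM in NT3, against 298, 188, 201 and 220 CPM in Ctrl. Ctrl mouse 1 was the highest of its group and still below every NT3 mouse. The row was 1.73-fold higher in NT3 (log2 0.79, SE 0.16, adjusted p = 0.0106), and without Ctrl mouse 2, Ctrl mouse 3 or NT3 mouse 3 adjusted p reached 0.102. The Lat2 row itself held 16 to 22 fragments per library in NT3 and 6 to 18 in Ctrl, with a log2 fold change of 0.70 (SE 0.37, adjusted p = 0.681).

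Gm29439, opposite Cd22, averaged 230 ± 61.9 CPM in NT3 and 105 ± 32.3 CPM in Ctrl (SD, n = 4 each; log2 1.12, SE 0.21, adjusted p = 0.0108), and was not called without Ctrl mouse 2, Ctrl mouse 3 or NT3 mouse 3 (adjusted p up to 0.0609). The other 6 B lymphoid rows tested were not called. Cd79a, which encodes a chain of the B cell receptor, stood at -0.08 (adjusted p = 0.983), Cr2, a complement receptor gene of mature B cells, at -0.08 (adjusted p = 0.962), and Gm12462 and 5730488B01Rik, both opposite the B lineage factor gene Pax5, at 0.26 and 0.35 (adjusted p = 0.932 and 0.829). Over the 35 rows of the list NT3 libraries held 1373 to 1685 CPM and Ctrl libraries 849 to 1034 CPM. That sum includes the 4 called rows, so it is no separate evidence. Of 28 markers' own rows 5 passed the filter on low counts, and only Vpreb2 was at 0 in all libraries. With the marrow marker covariate, 3 of the 4 B lymphoid calls were lost, with adjusted p of 0.0672 for Tesk1, 0.0641 for Gm29439 and 0.112 for Cd72, and Rfc2 stayed called. In bulk RNA, a different number of cells of a type and a different amount of RNA per cell cannot be told apart, and the part of B lymphoid cells in these rows was not tested.

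Gimap1os, a transcript opposite Gimap1, a GTPase gene of lymphocytes, held 144, 158, 202 and 177 CPM in NT3, against 110, 72.2, 81.9 and 96.2 CPM in Ctrl. The groups were separate, and the row was 1.89-fold higher in NT3 (log2 0.91, SE 0.18, adjusted p = 0.00944). It was not called without Ctrl mouse 2, Ctrl mouse 3 or NT3 mouse 3 (adjusted p up to 0.0963). The Gimap1 row, with 23 to 41 fragments in NT3 and 6 to 24 in Ctrl, stood at 0.98 (SE 0.34, adjusted p = 0.347). Gm42870, on chromosome 16 with no exon opposite, averaged 167 ± 58.1 CPM in NT3 and 83.0 ± 11.8 CPM in Ctrl (log2 1.01, SE 0.22, adjusted p = 0.0216). It was the only called row whose groups overlapped, and it was called in 3 of 8 fits that left out a mouse, being lost without Ctrl mouse 1, Ctrl mouse 2, Ctrl mouse 3, NT3 mouse 3 or NT3 mouse 4 (adjusted p up to 0.107).

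Markers of other blood cells gave 0 called rows by edgeR and 0 by DESeq2, with an unadjusted edgeR p under 0.05 in 1 T and NK, 3 macrophage and dendritic, 1 granulocyte and 0 erythroid rows. Of T and NK lymphoid rows 3 were tested, and Gm11775, opposite Cd7, stood at 1.02 (adjusted p = 0.244) and Cd247 at 0.24 (adjusted p = 0.751). Of 12 macrophage and dendritic rows tested, 8 were above 0, with Ms4a6c at 0.97 (SE 0.25, adjusted p = 0.104) and the fractalkine receptor gene Cx3cr1 at 1.37 (SE 0.41, adjusted p = 0.195). The macrophage list summed to 2206 to 2758 CPM in NT3 and 1917 to 2838 CPM in Ctrl. Granulocyte rows had a median of -0.06 over 7 tested, with Kcnh7, opposite Gca, at -0.47 (adjusted p = 0.388) and Ltf at -0.87 (adjusted p = 0.683). Erythroid rows had a median of -0.47 over 8 tested, with Apex2, opposite the haem synthesis gene Alas2, at -0.56 (adjusted p = 0.677) and Hcn3, opposite Pklr, at -0.46 (adjusted p = 0.798). The platelet gene Gp1ba stood at -0.32 (adjusted p = 0.807).

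**Figure D3:**
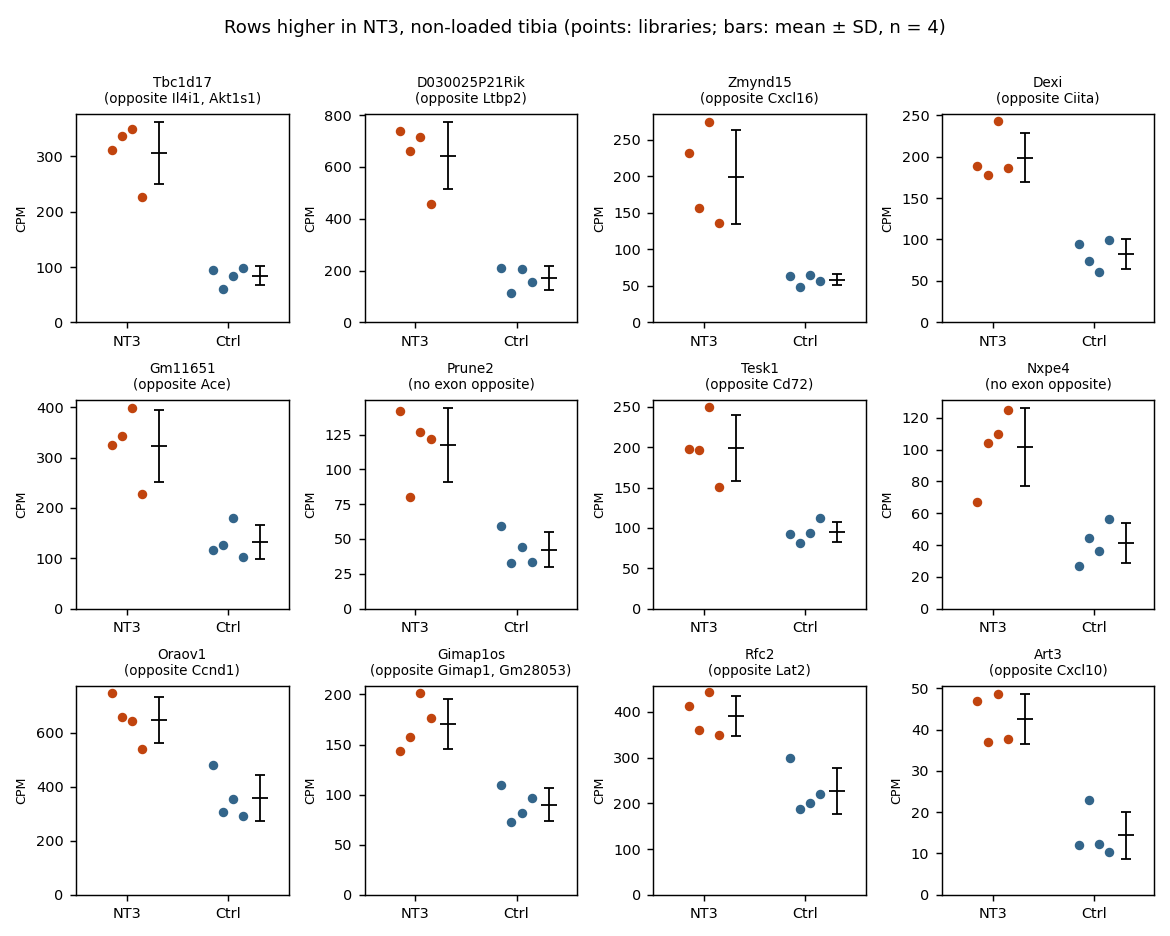
CPM of every library for the 12 rows with the smallest adjusted p among those higher in NT3 with a mean of at least 20 fragments; points are libraries, NT3 left and Ctrl right, and bars are mean ± SD (n = 4). In each panel the lowest NT3 library lies above the highest Ctrl library, with Tbc1d17 at 226 to 350 CPM in NT3 and 60.2 to 98.2 CPM in Ctrl.

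Among growth factor and matrix genes, the D030025P21Rik row was the most changed. This antisense transcript at chr12:84875769-84879755 shares 764 exon bases with Ltbp2, a microfibril protein related to the latent TGF-beta binding proteins. It held 740, 660, 716 and 455 CPM in NT3, against 210, 113, 208 and 158 CPM in Ctrl. The lowest NT3 library was above the highest Ctrl library by more than the whole Ctrl range. The row was 3.73-fold higher in NT3 (log2 1.90, SE 0.19, adjusted p = 1.36e-06), while the Ltbp2 row itself, at 8 to 26 fragments in NT3 and 13 to 31 in Ctrl, stood at -0.15 (SE 0.36, adjusted p = 0.961). Of 19 TGF-beta family rows tested it was the 1 called, and 14 of the others were below 0 with the list's median at -0.13; Tgfb2 stood at -0.90 (adjusted p = 0.533), Gm29491, opposite Tgfb2, at -0.87 (adjusted p = 0.599) and Txndc5, opposite Bmp6, at -0.58 (adjusted p = 0.708).

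Gm11651 lies opposite Ace, the angiotensin-converting enzyme gene of endothelium and macrophages, at chr11:105965608-105985694. The row held 326, 343, 400 and 228 CPM in NT3, against 117, 126, 180 and 104 CPM in Ctrl. The groups did not overlap, and the row was 2.45-fold higher in NT3 (log2 1.29, SE 0.19, adjusted p = 0.000184). The Ace row held 1 to 3 fragments in NT3 and 0 to 1 in Ctrl.

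Oraov1 lies opposite Ccnd1, the cyclin D1 gene that drives entry into the cell cycle, and shares 1100 exon bases with it at chr7:144915100-144931701. The row held 749, 657, 645 and 538 CPM in NT3, against 482, 308, 353 and 292 CPM in Ctrl. All NT3 libraries were above all Ctrl libraries, and the row was 1.80-fold higher in NT3 (log2 0.85, SE 0.16, adjusted p = 0.00772; 0.0761 without Ctrl mouse 2). The Ccnd1 row stood at 0.01 (SE 0.24, adjusted p = 0.998). Of 19 cell cycle rows tested it was the 1 called, and Gm43126, opposite Ccnd2, stood at 0.39 (adjusted p = 0.550), Cdk4 at 0.37 (adjusted p = 0.567) and Exosc9, opposite Ccna2, at -0.31 (adjusted p = 0.721).

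Smaller increases were called for 5 antisense or neighbouring rows of vascular, matrix and growth factor genes. Nt5dc2, opposite the scavenger receptor gene Stab1, averaged 156 ± 21.3 CPM in NT3 and 87.9 ± 5.74 CPM in Ctrl (log2 0.83, adjusted p = 0.0152). Gm16000, opposite the growth factor gene Pdgfc, averaged 104 ± 19.4 CPM in NT3 and 53.5 ± 3.82 CPM in Ctrl (log2 0.95, adjusted p = 0.0152). Gm42609, opposite the kinase gene Dclk1, averaged 145 ± 21.8 CPM in NT3 and 74.8 ± 19.7 CPM in Ctrl (log2 0.95, adjusted p = 0.0152). None of these 3 rows had overlapping groups. Gm16567, opposite the complement protease gene C1s1, averaged 544 ± 152 CPM in NT3 and 299 ± 72.3 CPM in Ctrl (log2 0.86, adjusted p = 0.0331). 2700060E02Rik, opposite the basement membrane gene Nid2, averaged 73.7 ± 8.82 CPM in NT3 and 37.8 ± 4.55 CPM in Ctrl (log2 0.95, adjusted p = 0.0362; SD, n = 4 each throughout).

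All 5 rows lost the call without Ctrl mouse 2 or without NT3 mouse 3. Nt5dc2, Gm16000, Gm16567 and 2700060E02Rik also lost it without Ctrl mouse 3, and Nt5dc2, Gm42609, Gm16567 and 2700060E02Rik without NT3 mouse 1. Gm16567 was further lost without Ctrl mouse 4. Adjusted p in these fits reached 0.102 for Nt5dc2, 0.141 for Gm16000, 0.101 for Gm42609, 0.173 for Gm16567 and 0.180 for 2700060E02Rik.

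Within the clock list, 1 of 10 tested rows was called. 0610040F04Rik, opposite Bhlhe40, a repressor gene of the clock and of stress responses, averaged 125 ± 20.5 CPM in NT3 and 69.3 ± 14.1 CPM in Ctrl (SD, n = 4 each; log2 0.84, SE 0.20, adjusted p = 0.0372). It was called only without Ctrl mouse 1 or NT3 mouse 4 among the fits that left out a mouse (adjusted p up to 0.207). Nr1d1, a core clock repressor gene opposite Thra, held 91.7 ± 8.09 CPM in NT3 and 139 ± 9.22 CPM in Ctrl and was not called (-0.60, SE 0.17, adjusted p = 0.147), and D930015M05Rik, opposite Cry2, stood at -0.45 (adjusted p = 0.523).

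Extl1 had the largest fold change. It encodes a glycosyltransferase of heparan sulfate synthesis, lies at chr4:134356372-134383850 and had no exon opposite. Its row held 31, 30, 32 and 22 fragments in NT3, against 4, 4, 1 and 0 in Ctrl. Ctrl libraries were near or at 0 and NT3 libraries were not. The row was 12.4-fold higher in NT3 (log2 3.63, SE 0.49, adjusted p = 5.31e-05), with a log2 fold change between 3.21 and 4.10 over the fits tried. Although no exon lay opposite, the Extl1 row lay within 20000 bases downstream of Slc30a2. Other called rows with no exon opposite also lay downstream of a gene within this window. These were Fzd2 (Gm11636 and 2810433D01Rik), Gm42870 (Iglv3), Prune2 (AC147026.1) and Cep162 (Mrap2). Whether fragments from such neighbours entered these rows was not tested.

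Prune2, at chr19:16956118-17223932 with no exon opposite, held 142, 80.0, 127 and 122 CPM in NT3, against 59.2, 32.5, 44.3 and 33.4 CPM in Ctrl. The groups were separate, with NT3 mouse 2 nearest to Ctrl, and the row was 2.78-fold higher in NT3 (log2 1.48, SE 0.23, adjusted p = 0.000303). Nxpe4, at chr9:48162023-48400025, held 67.0, 104, 110 and 125 CPM in NT3, against 26.6, 44.5, 36.5 and 56.4 CPM in Ctrl. It was 2.46-fold higher in NT3 without overlap (log2 1.30, SE 0.24, adjusted p = 0.00403). Nxpe4 lost the call with the marrow marker covariate (adjusted p = 0.0686) and with animal number as a term (0.0503).

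Nrp1 encodes neuropilin, a co-receptor for VEGF and semaphorins in endothelium and nerve. Its row averaged 40.6 ± 6.0 CPM in NT3 and 12 ± 6.28 CPM in Ctrl (SD, n = 4 each; log2 1.73, SE 0.35, adjusted p = 0.0106), and was not called without Ctrl mouse 2 or NT3 mouse 3 (adjusted p up to 0.0651). With Nt5dc2 it made 2 called rows of 9 endothelial rows tested, whose median was -0.15; Stab1 stood at 0.40 (adjusted p = 0.644), Gm16268, opposite Stab2, at -0.44 (adjusted p = 0.639) and the pan-endothelial gene Pecam1 at -0.33 (adjusted p = 0.928). The list summed to 461 to 541 CPM in NT3 and 388 to 455 CPM in Ctrl. The 2 called rows are part of that sum, so it is no separate evidence. Rap1b, a small GTPase gene of integrin signalling, averaged 28.5 ± 5.53 CPM in NT3 and 9.66 ± 4.92 CPM in Ctrl (log2 1.55, SE 0.37, adjusted p = 0.0460), but stayed called only without NT3 mouse 2 among the fits that left out a mouse (adjusted p up to 0.192).

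Of the 10 rows lower in NT3, Fzd2 changed most. Fzd2 encodes a Frizzled receptor for Wnt ligands, lies at chr11:102604396-102608058 and had no exon opposite. Its row held 6.70, 8.12, 6.55 and 7.55 CPM in NT3, against 32.6, 44.5, 36.5 and 54.3 CPM in Ctrl. NT3 libraries were close together and far below every Ctrl library. The row was 5.72-fold lower in NT3 (log2 -2.52, SE 0.34, adjusted p = 5.31e-05).

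Fzd2 and Oraov1 were the 2 called rows of 15 Wnt rows tested, with Wnt4 at 0.78 (SE 0.29, adjusted p = 0.406) and Gm11670, opposite the feedback gene Axin2, at -0.69 (SE 0.38, adjusted p = 0.721). The median of the Wnt list was -0.07. The Axin2 row held too few fragments to test.

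Gm16277 lies opposite Gfra1, the co-receptor gene for the neurotrophic factor GDNF, at chr19:58204139-58236047. The row held 77.0, 114, 109 and 58.2 CPM in NT3, against 229, 220, 210 and 207 CPM in Ctrl. Ctrl libraries were tight and stood clear of the NT3 libraries. The row was 2.43-fold lower in NT3 (log2 -1.28, SE 0.19, adjusted p = 0.000142), and the Gfra1 row held 0 fragments in every NT3 library and 0 to 3 in Ctrl.

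Gm16159 lies opposite Fgfr1, a fibroblast growth factor receptor gene. Its row held 242, 337, 235 and 179 CPM in NT3, against 354, 482, 379 and 425 CPM in Ctrl, with no overlap. It was 1.65-fold lower in NT3 (log2 -0.72, SE 0.17, adjusted p = 0.0372), and was called only without Ctrl mouse 1 or NT3 mouse 2 among the fits that left out a mouse (adjusted p up to 0.222). Gm15677, opposite the carboxypeptidase-like gene Cpxm2, held 20.1, 5.80, 14.4 and 23.7 CPM in NT3, against 41.1, 54.2, 45.4 and 33.4 CPM in Ctrl. Again no library crossed over, and the row was 2.68-fold lower in NT3 (log2 -1.42, SE 0.33, adjusted p = 0.0372; called only without Ctrl mouse 1, Ctrl mouse 4 or NT3 mouse 4, with adjusted p up to 0.206 in the other fits that left out a mouse).

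The thyroglobulin locus on chromosome 15 gave 2 called rows on opposite strands that share 112 exon bases. The Tg row, at chr15:66670753-66850721, held 59.2, 129.9, 77.3 and 72.3 CPM in NT3, against 130.5, 266, 172 and 214 CPM in Ctrl. Ctrl mouse 1 stood just above NT3 mouse 2, the closest approach of the groups. The Gm17140 row held 143, 197, 143 and 63.6 CPM in NT3, against 290, 431, 453 and 411 CPM in Ctrl. The log2 fold changes were -1.21 for Tg (SE 0.24, adjusted p = 0.0218) and -1.54 for Gm17140 (SE 0.28, adjusted p = 0.0330). Tg was not called without Ctrl mouse 2, NT3 mouse 1, NT3 mouse 3 or NT3 mouse 4 (adjusted p up to 0.106), and Gm17140 was called only without NT3 mouse 2 or NT3 mouse 4 (up to 0.161 in the other fits that left out a mouse).

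Ddx4, an RNA helicase gene of germ cells, held 30.1, 41.7, 41.9 and 31.3 CPM in NT3, against 53.2, 117, 89.6 and 106 CPM in Ctrl. It was 2.52-fold lower in NT3 (log2 -1.34, SE 0.24, adjusted p = 0.00379; 0.0510 without Ctrl mouse 2). Numb, which encodes an inhibitor of Notch signalling and lies opposite Gm46367, held 36.8, 26.7, 21 and 21.6 CPM in NT3, against 49.5, 57.8, 74.1 and 65.8 CPM in Ctrl. Both rows were lower in every NT3 library than in any Ctrl library. Numb was 2.32-fold lower in NT3 (log2 -1.22, SE 0.26, adjusted p = 0.0181), was called only without Ctrl mouse 1, NT3 mouse 1 or NT3 mouse 2 (up to 0.117 in the other fits that left out a mouse), and was the 1 called of 10 Notch rows tested, with Maml1 at 0.48 (adjusted p = 0.792) and A930024N18Rik, opposite Dll1, at 0.54 (adjusted p = 0.817).

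Vps13b, named for a lipid transfer protein and opposite Gm48960 and the respiratory chain gene Cox6c, held 43.5, 45.2, 35.4 and 74.4 CPM in NT3, against 80.9, 105, 98.5 and 125 CPM in Ctrl. NT3 mouse 4 came near the lowest Ctrl mouse without reaching it. The row was 2.05-fold lower in NT3 (log2 -1.04, SE 0.22, adjusted p = 0.0193) and was called only without Ctrl mouse 1 or NT3 mouse 4 (up to 0.142 in the other fits that left out a mouse). Cep162, a gene of the base of the cilium, held 10.1, 8.12, 5.24 and 7.55 CPM in NT3, against 19.3, 56.6, 15.5 and 26.1 CPM in Ctrl. Ctrl mouse 2 was the highest by far, and the row (log2 -1.89, SE 0.42, adjusted p = 0.0265) was called only without Ctrl mouse 1, Ctrl mouse 3 or Ctrl mouse 4 (up to 0.370 in the other fits that left out a mouse).

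**Figure D4:**
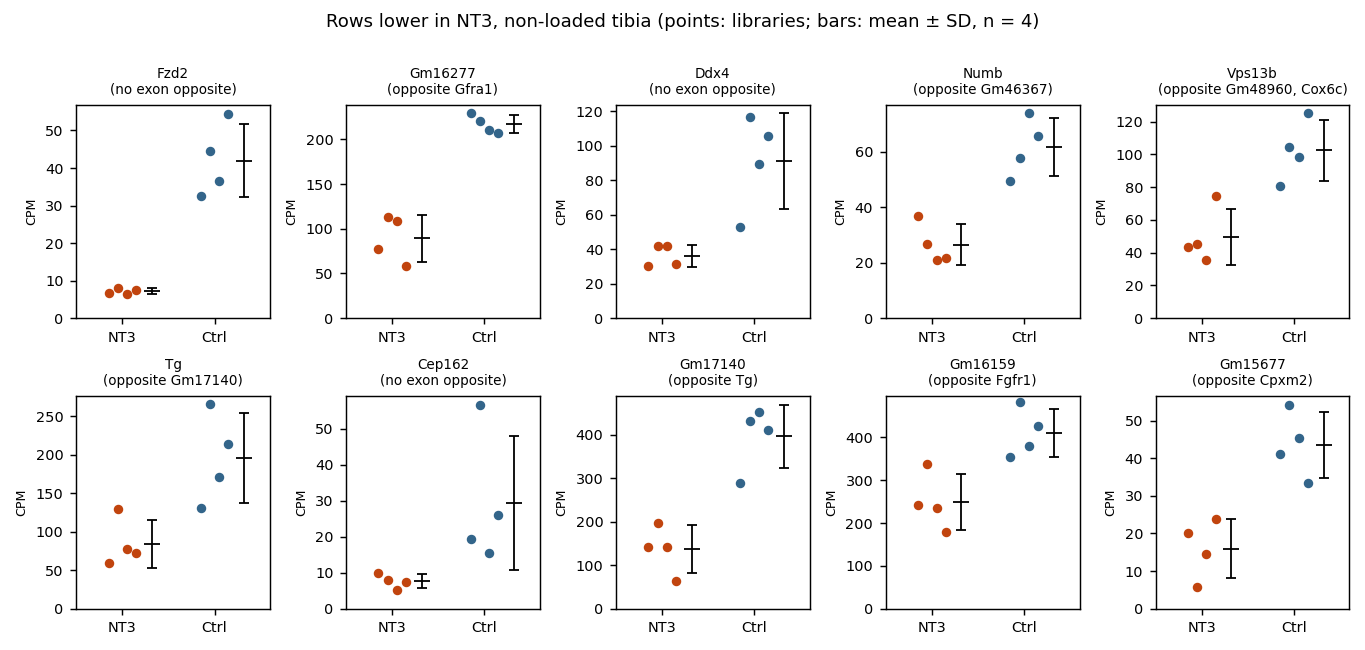
CPM of every library for the 10 rows called lower in NT3; points are libraries, NT3 left and Ctrl right, and bars are mean ± SD (n = 4). The NT3 points lie below the Ctrl points in every panel, by the widest margin relative to their level in Fzd2 (6.55 to 8.12 CPM in NT3 and 32.6 to 54.3 CPM in Ctrl).

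Bone cell genes gave 0 called rows by edgeR and 0 by DESeq2, with an unadjusted edgeR p under 0.05 in 4 of 26 osteoblast, 2 of 8 osteocyte, 2 of 13 collagen and 1 of 2 osteoclast rows. Many rows named for bone cell genes held too few fragments to test: 7 of 19 osteocyte and 15 of 30 osteoblast rows passed the filter. The strand setting was not given, so whether such rows measured the mRNA of the gene they name was not tested. Dmp1, a matrix gene of osteocytes, held 73.8 ± 29.1 CPM in NT3 and 87.7 ± 16.7 CPM in Ctrl (-0.25, SE 0.23, adjusted p = 0.886). Sost, the osteocyte inhibitor of Wnt signalling, held 22.3, 31.3, 28.8 and 9.71 CPM in NT3, against 29, 31.3, 52.0 and 48.1 CPM in Ctrl. The Sost groups overlapped, and the log2 fold change of -0.81 (SE 0.32) did not pass (adjusted p = 0.482). Irx5 stood at -0.92 (SE 0.34, adjusted p = 0.388).

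Of 26 osteoblast rows tested, 14 were above 0 with a median of 0.06. Spp1, which encodes osteopontin, came closest to a call: it held 22.4 ± 3.52 CPM in NT3 and 8.0 ± 2.28 CPM in Ctrl (SD, n = 4 each; 1.47, SE 0.38, adjusted p = 0.0829). Tnc, the tenascin gene, stood at 1.03 (SE 0.34, adjusted p = 0.266). Runx2, the lineage factor gene, stood at 0.14 and Runx2os1, opposite it, at -0.04 (adjusted p = 0.932 and 0.988). Alpl held 10, 7, 13 and 2 fragments in NT3, against 4, 3, 1 and 2 in Ctrl, Bglap held 0 in every NT3 library and at most 1 in a Ctrl library, and neither passed the filter.

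Col1a1, the main collagen gene of bone, held 108, 172, 76.0 and 99.2 CPM in NT3, against 79.7, 40.9, 67.5 and 204 CPM in Ctrl. The groups overlapped across their whole range (0.21, SE 0.53, adjusted p = 0.967), and 7 of 13 collagen rows tested were above 0. Gm13372 and 2810430I11Rik, both opposite Col5a1, stood at 0.58 and 0.74 (adjusted p = 0.639 and 0.479). Rows named for osteoclast regulators were at the floor: Tnfsf11 held 0 fragments in all but 1 library, and Tnfrsf11b averaged 1.42 CPM in NT3 and 1.72 CPM in Ctrl. Of 19 osteoclast rows 2 were tested, Gm15200, opposite Ostm1 (0.48, adjusted p = 0.440), and Itgb3 (0.55, adjusted p = 0.769).

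Other tissue lists gave 0 calls by edgeR and 0 by DESeq2 as well. An unadjusted edgeR p under 0.05 was found in 486 of all 6220 rows, and here in 3 of 7 loading-response rows, 1 chondrocyte row, 1 nerve row and 0 muscle rows. Of 18 skeletal muscle rows tested 14 were above 0 with a median of 0.26, among them Atp2a1, opposite Rabep2, at 0.29 (adjusted p = 0.868) and Mylpf at 0.35 (adjusted p = 0.930). Summed muscle rows ran from 3511 to 17840 CPM in NT3 and from 2666 to 14420 CPM in Ctrl, so single bones differed more than genotypes. The chondrocyte rows Chad and Tpr, opposite Prg4, stood at 0.20 and 0.60 (adjusted p = 0.932 and 0.607), the adipocyte row Plin4 at 0.05 (adjusted p = 0.981), and Gm11946 and Gm11947, opposite the smooth muscle gene Smtn, at -0.18 and -0.31 (adjusted p = 0.873 and 0.932). Gm42802, opposite Pdgfra, stood at 0.47 and Apol7d, opposite Fn1, at 0.30 (adjusted p = 0.718 and 0.791). Gm11149, opposite the adhesion gene Ncam1 of nerve, held 339 ± 45.1 CPM in NT3 and 489 ± 29.5 CPM in Ctrl (-0.53, SE 0.15, adjusted p = 0.125), while Ncam1 stood at -0.16 (adjusted p = 0.951). Of loading-response rows 7 were tested, including Aldh1a3 at -1.16 (adjusted p = 0.282).

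Where a called row lay opposite a gene with a row of its own, that row could be compared with it. Of 28 such genes, 16 had rows that were tested and 4 had rows that were called. Those 4 were the members of the Tesk1 and Cd72 pair and of the Tg and Gm17140 pair. Apart from these 2 overlapping pairs, the called rows were spread over the genome, the nearest neighbours being Numb and D030025P21Rik, 953835 bases apart on chromosome 12.

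The right tibiae of the same mice gave a view of the same genotype difference after loading. There, 161 of 6080 rows (2.65%) were called by edgeR, and 27 of the 36 rows called in non-loaded limbs were among them, with 33 of 36 on the same side of 0. The limbs share their mice, so these counts are not independent of the non-loaded ones. The share of all tested rows on the same side of 0 in both limbs was not measured, so 33 of 36 has no background beside it. Tbc1d17, opposite Il4i1, averaged 272 CPM in NT3 and 67.7 CPM in Ctrl in loaded limbs (log2 2.00, adjusted p = 1.28e-09), and Psd, opposite Nfkb2, 219 CPM in NT3 and 96.3 CPM in Ctrl (1.18, adjusted p = 4.08e-06). Fzd2 averaged 11.5 CPM in NT3 and 41.7 CPM in Ctrl in loaded limbs (-1.87, adjusted p = 0.00198).

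The difference of the genotype effect between the limbs was tested over all 16 libraries with a block for mouse. It was called in 10 of 7192 rows (0.139%) and in 0 of the 36 by edgeR; 10 of the 36 had an unadjusted p under 0.05, and DESeq2 called 11 rows in all. The closest to a call among the 36 were 2700060E02Rik, opposite Nid2, at -0.10 in loaded against 0.95 in non-loaded limbs (difference -1.09, SE 0.28, adjusted p = 0.136), and Cd72, at -0.06 in loaded against 0.62 in non-loaded limbs (difference -0.68, SE 0.18, adjusted p = 0.143). Tesk1, opposite Cd72, went the other way, at 1.81 in loaded against 1.06 in non-loaded limbs (difference 0.76, SE 0.23, adjusted p = 0.285).

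**Figure D5:**
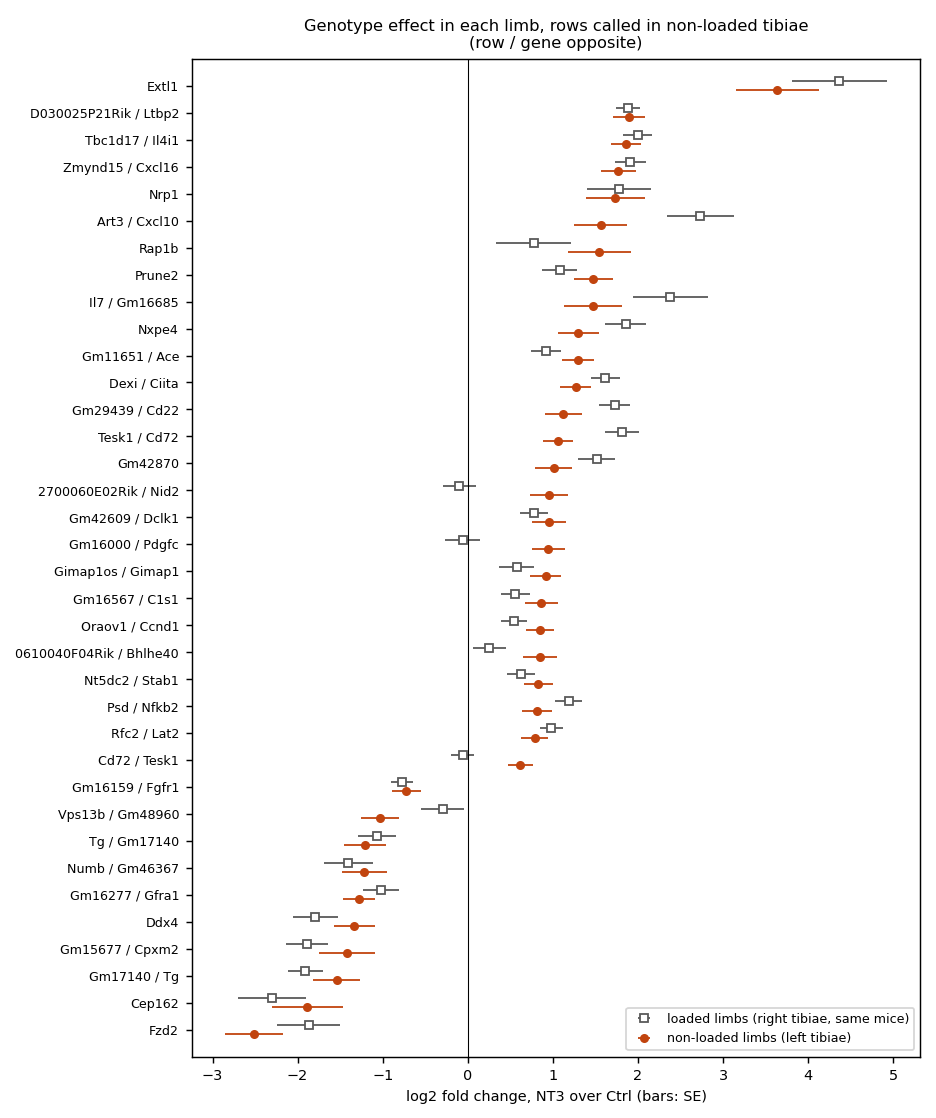
Log2 fold change of NT3 over Ctrl in loaded right tibiae (open squares) and non-loaded left tibiae (filled circles) for the 36 rows called in non-loaded tibiae, with bars of 1 SE. Most pairs of symbols lie on the same side of 0; Cd72, Gm16000 (opposite Pdgfc) and 2700060E02Rik (opposite Nid2) are the 3 rows whose loaded value is on the other side of it, at -0.06, -0.06 and -0.10.

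Of the 36 calls, 11 remained in every one of the 8 fits that left out a mouse, and 9 of these also remained in all 10 other fits. The 9 were Tbc1d17, D030025P21Rik, Zmynd15, Extl1, Fzd2, Dexi, Gm16277, Gm11651 and Prune2, and Tesk1 and Nxpe4 completed the 11. Every called row kept its direction in every fit that tested it. With the mean log2 CPM of 15 granulocyte, erythroid and platelet rows as a covariate, 60 rows were called, 16 higher and 44 lower, and 19 of the 36 were among them. The 17 rows that lost the call there, at adjusted p of 0.0579 to 0.314, were Tesk1, Nxpe4, Art3, Nrp1, Gm29439, Nt5dc2, Gm42609, Gm16000, Psd, Vps13b, Gm42870, 2700060E02Rik, Il7, 0610040F04Rik, Gm15677, Cd72 and Rap1b. With animal number as a 2-level term, 12 rows lost it, at adjusted p of 0.0503 to 0.230: Nxpe4, Gm16000, Numb, Psd, Gm42870, Cep162, Gm17140, 2700060E02Rik, Il7, 0610040F04Rik, Gm15677 and Rap1b. This term split the mice at the median animal number. Its upper level held Ctrl mouse 4 and NT3 mice 2, 3 and 4, so it could not be told fully apart from genotype. The marrow covariate was 6.60, 6.45, 6.44 and 6.70 in NT3, against 7.03, 6.66, 6.79 and 6.63 in Ctrl, overlapping between the groups, and the part of residual marrow in the calls was not tested beyond this fit.

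None of 5 general library properties passed a test between genotypes, where 4 against 4 allow an exact two-sided permutation p of 0.0286 at the smallest. Library size averaged 871500 ± 78470 fragments in NT3 and 947300 ± 48920 in Ctrl (permutation p = 0.171, adjusted over 5 properties 0.572). Ribosomal RNA rows took 10.8 ± 3.34% in NT3 and 13.9 ± 2.79% in Ctrl (p = 0.229, adjusted 0.572, exact permutation). The Gm10800 repeat row took 0.966 ± 0.966% in NT3 and 0.980 ± 1.53% in Ctrl, summed marrow rows 8545 ± 1220 CPM in NT3 and 9808 ± 2733 CPM in Ctrl, and summed muscle rows 7999 ± 6680 CPM in NT3 and 6850 ± 5180 CPM in Ctrl (adjusted exact permutation p = 1, 0.714 and 0.857; SD, n = 4 each).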

How the data were processed

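RNA from cortical bone of the non-loaded tibia was sequenced single-end for 75 bases after ribosomal depletion and random priming. The values are gene counts made by the authors and deposited per sample. The submitters' processing notes name mm10 as the build, STAR 2.4.2a, featureCounts 1.4.6 from Subread, and DESeq2. Neither the annotation release nor the strand setting was given in the sources used here. GENCODE placed 45250 of 47517 rows on GRCm38 through their symbol and 621 through an earlier one.

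Low rows were dropped by filterByExpr (minimum count 10), which left 95.8% of fragments. The rest were scaled by TMM and tested with edgeR 4.0.16 robust quasi-likelihood F tests in R 4.3.3. Benjamini-Hochberg adjusted p values run over all rows tested, and a row was called under 0.05. SE is the standard error of a log2 fold change. Alternatives used limma 3.58.1 and DESeq2 1.42.0. The limb difference used 16 libraries with a block for mouse, since the design text names both limbs of each mouse; deviations of the limbs correlated at 0.045 to 0.178 within mice. Nothing in the labels gave a batch. Animal numbers ran from 509.2 to 586.7 in Ctrl and from 526.3 to 640.7 in NT3. Tube numbers of the non-loaded limbs ran from 2 to 16 in Ctrl and from 12 to 34 in NT3. The comparison, the lists and the rows were chosen with earlier results of these data known. Named were every called row, a set of fixed genes with the rows opposite them, and up to 4 rows of a list with a called member and up to 2 of other lists by smallest p, with values in every library for the 12 smallest adjusted p in each direction at a mean of at least 20 fragments; Extl1, Psd, Cd72 and the fixed rows Map3k14, Sost, Col1a1 and Alpl were given such values after they were seen.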

Additional observations from a re-analysis of the deposited data

Results flagged for a closer look

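Of 198 groups of 4 libraries checked, 8 had 1 library whose gap to the nearest other exceeded 0.829 of the group's range, and chance gives about 1 in 20. Among called rows, Art3, opposite Cxcl10, held 22.9 CPM in Ctrl mouse 2, against 10.4 to 12.2 CPM in the other Ctrl mice. Gm16000, opposite Pdgfc, held 59.2 CPM in Ctrl mouse 1, against 50.9 to 52.3 CPM in the others. Il7 held 48.5 CPM in NT3 mouse 3, against 31.3 to 33.6 CPM in the other NT3 mice. Among rows not called, Cdk4 held 774 CPM in NT3 mouse 1, against 510 to 539 CPM, and Gm16175, opposite Bcl3, held 41.9 CPM in NT3 mouse 3, against 24.6 to 27.0 CPM. Cd247 held 416 CPM in Ctrl mouse 1, against 346 to 357 CPM, and Gp1ba held 54.4 CPM in the same mouse, against 70.8 to 73.5 CPM. The Gm10800 repeat row took 3.28% of the fragments of Ctrl mouse 2, against 0.132% to 0.308% in the other Ctrl mice. The causes were not tested.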

How the results depend on the processing

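Of the 36 called rows, 36 stayed called with RLE size factors, without ribosomal RNA and Gm10800 rows, with DESeq2 and with a skeletal muscle covariate. With animal number as a 2-level term 24 of the 36 were kept and 12 lost, and with the marrow marker covariate 19 were kept and 17 lost. The count of calls became 71 with no filter and 60 with the marrow marker covariate. Leaving out 1 mouse gave 12 to 77 calls. The highest count came when Ctrl mouse 1 was left out, and the lower ones were 12, 20 and 14 when Ctrl mouse 2, Ctrl mouse 3 and NT3 mouse 3 were left out in turn. With a replicate block for mouse over all 16 libraries, limma-voom called 35 rows, 31 of them shared. The difference between limbs gave 10 calls with the replicate block, 0 without it by edgeR, where 335 rows had an unadjusted p under 0.05, and 17 with the block and no filter. Leaving out 1 mouse gave 7 to 14.

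Reversals were found in rows that were not called and in 2 library properties. With the marrow marker covariate, log2 fold changes became -0.15 for Chad, 0.36 for Gm43109, 0.33 for Ltb, -0.022 for Gm16587, -0.16 for Col1a1, -0.00097 for Plin4 and -0.056 for Ccnd1. With the animal number as a term they became -0.081 for Chad, 0.13 for Gm43109, -0.081 for Col1a1 and -0.089 for Plin4. Leaving out 1 mouse, they ran from -0.031 to 0.36 for Chad, from -0.35 to 0.029 for Gm43109, from -0.52 to 0.077 for Ltb, from -0.046 to 0.86 for Col1a1, from -0.058 to 0.18 for Plin4, from -0.21 to 0.11 for Runx2os1 and from -0.12 to 0.18 for Ccnd1. The NT3 minus Ctrl difference ran from -0.470 to 0.752 percentage points for the Gm10800 row and from -2130 to 3672 CPM for muscle rows. The causes were not tested.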
